A study of Rattus norvegicus with 17 samples.

Results

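The cytochrome P450 genes of the rat meibomian gland (MG) were followed, the MG being the large sebaceous gland of the eyelid whose lipids cover the tear film. Genes whose symbol begins with Cyp and a digit were taken by name, leaving out Cyp51 and the Cyp26 genes, and a gene was kept when it reached 1 TPM in at least 3 of the 17 rats. Of the 56 P450 genes so listed, 33 met this level, within a table of 17251 genes of which 13105 were tested. TPM gives the share of a gene's transcripts in its sample, corrected for transcript length, so levels could be compared between genes.

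RNA was measured in the MG of female Sprague-Dawley rats aged 10 to 12 weeks, with 1 deposited column per rat. The groups were 4 Control WT rats (wild-type, not irradiated), 5 Control P1.hMR rats (transgenic, not irradiated), 3 UVB WT rats and 5 UVB P1.hMR rats, the UVB groups having received ultraviolet B light on the eyelids for 5 days before the glands were taken. P1.hMR rats carry the human gene of the mineralocorticoid receptor (MR), NR3C2, behind its proximal P1 promoter, beside the rat's own receptor gene. P1 is not a gland-specific promoter, so the excess of receptor is not limited to the MG. The study used UVB to provoke meibomian gland dysfunction (MGD) as it occurs in ocular rosacea (OR), and asked what an excess of MR adds.

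P450 enzymes are haem proteins that use oxygen to hydroxylate or epoxidise fatty acids, sterols, steroids, vitamins and foreign compounds. Those of the endoplasmic reticulum receive electrons from the reductase Por, and those of mitochondria from ferredoxin. In skin and sebaceous glands, family 4 enzymes oxidise the far end of fatty acids, a step needed for the ω-hydroxylated lipids of the skin barrier and of meibum, while several family 2 enzymes form epoxides of arachidonic acid and other members make or inactivate steroids, oxysterols and vitamin D.

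The tissue label was checked on 12 genes of meibocytes and sebocytes, all of them listed, with Scd at group means of 25790.0 to 27690.0 TPM and Awat2 at 7280.0 to 11610.0 TPM. The human transgene was listed at 0 in every WT rat and lay between 5.31 and 9.31 TPM in every P1.hMR rat. Of 6 hepatocyte markers, Alb, Apoa2, Ttr, Fgb and Apob had group means of 0.05 TPM or less, while Serpina1 had group means of 23.0 to 85.3 TPM. TPM keeps no depth, and the precision of each value therefore came from the spread between rats. Several P450 genes are close copies of each other, and the deposited values of such genes are uncertain where the quantification divided shared reads between them. In whole gland, fewer cells of a type and less RNA per cell cannot be told apart.

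Levels of P450 genes in the MG spanned 3 ranges. In the mean over all rats, 5 members lay at or above 100 TPM, 9 lay between 10 and 100 TPM and 19 lay under 10 TPM. The highest was Cyp4f39 (958 TPM), the rat counterpart of human CYP4F22, which ω-hydroxylates ultra-long-chain fatty acids. Its lowest rat, a UVB P1.hMR rat at 695 TPM, lay above the highest value of any other member, 577 TPM for Cyp2b21 in a Control WT rat. Next came Cyp2b21 (245 TPM), Cyp17a1 (238 TPM), Cyp2j16 (189.6 TPM), Cyp2b12 (137 TPM) and Cyp2j10 (96.3 TPM), each of which overlapped its neighbours in this order, so the order was not fixed beyond the spread between rats. Cyp17a1 is the 17α-hydroxylase and 17,20-lyase of steroid synthesis, Cyp2b12 is an arachidonic acid epoxygenase known from sebaceous glands, and Cyp2j16 and Cyp2j10 belong to the CYP2J epoxygenases. Cyp4f39 alone gave between 36.5% and 51.3% of the summed TPM of the 33 members in a rat.

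**Figure D1:**
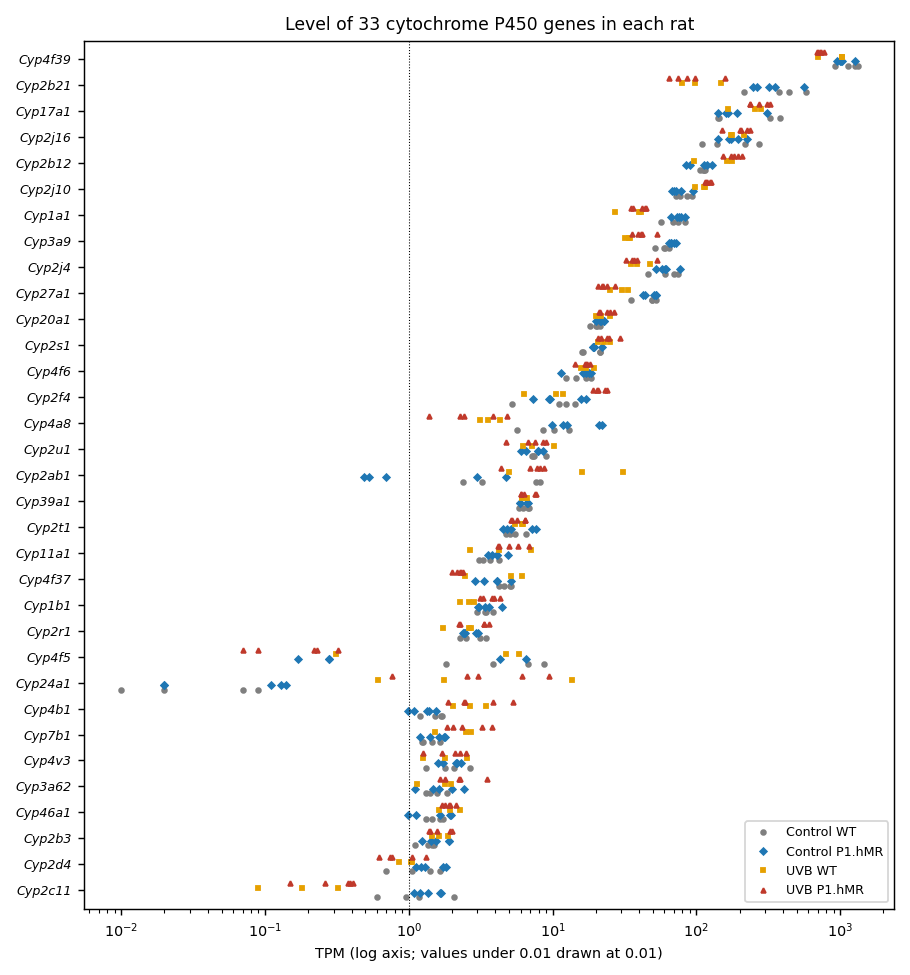
TPM of each of the 33 P450 genes (rows, ordered by their mean over all rats) in each rat (points, coloured by group) on a logarithmic axis, with values under 0.01 TPM drawn at 0.01 and the dotted line at 1 TPM. Cyp4f39 lies apart at the top, and Cyp24a1, Cyp2c11, Cyp4f5 and Cyp2ab1 are spread most widely.

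The 3 members that met the level by the least were Cyp2d4, Cyp2c11 and Cyp2b3, whose third-highest rats were at 1.64, 1.65 and 1.90 TPM. Just below it were Cyp27b1, the enzyme that activates vitamin D, Cyp2d3 and Cyp4f18, with third-highest rats at 0.91, 0.80 and 0.59 TPM. The other genes under the level included Cyp11b3 and Cyp21a1 of corticosteroid synthesis, which reached at most 0.89 and 0.49 TPM in any rat, aromatase Cyp19a1 at most 0.07 TPM, and the liver enzymes Cyp2e1 and Cyp1a2 at most 0.25 and 0.19 TPM. Of the 23 genes under the level, 0 were called after UVB when every listed gene was tested. Cyp24a1 reached 1 TPM only in UVB rats (6 of them) and Cyp2c11 only in control rats (7 of them), so both were kept through the treatment in which they were high and had to differ with it.

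To ask how UVB changed the family, UVB rats were compared with control rats of the same genotype. A gene was called when its limma p, adjusted by Benjamini-Hochberg over the 13105 genes, was under 0.05 and its difference of mean log2(TPM + 1), written below as log2 fold change, was at least 0.5 in size. This scale understates the change of low genes. In WT rats 8 members were called, 1 higher and 7 lower, or 24.2% of the members, where 7.91% of all genes tested were called (3.92% higher and 3.98% lower). In P1.hMR rats 15 members were called, 6 higher and 9 lower, or 45.5% of the members, where 10.8% of all genes were called (5.05% higher and 5.71% lower). Cyp24a1 and Cyp2c11, which reached 1 TPM in 1 treatment alone, are in these counts, and without them 0 members were called higher and 6 lower in WT (19.4%), and 5 higher and 8 lower in P1.hMR (41.9%). An unadjusted p under 0.05 was reached by 15 members in WT and 18 in P1.hMR, and by 35.3% and 47.6% of all genes. The 8 members called in WT were called in P1.hMR in the same direction. A further 7 passed in P1.hMR but not in WT, of which 6 had the same sign in WT and Cyp2f4 had not, and 18 members were called in neither genotype. The median log2 fold change of the members was 0.00 in WT and 0.06 in P1.hMR, beside 0.01 and -0.02 over all genes, and members were called in both directions.

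**Figure D2:**
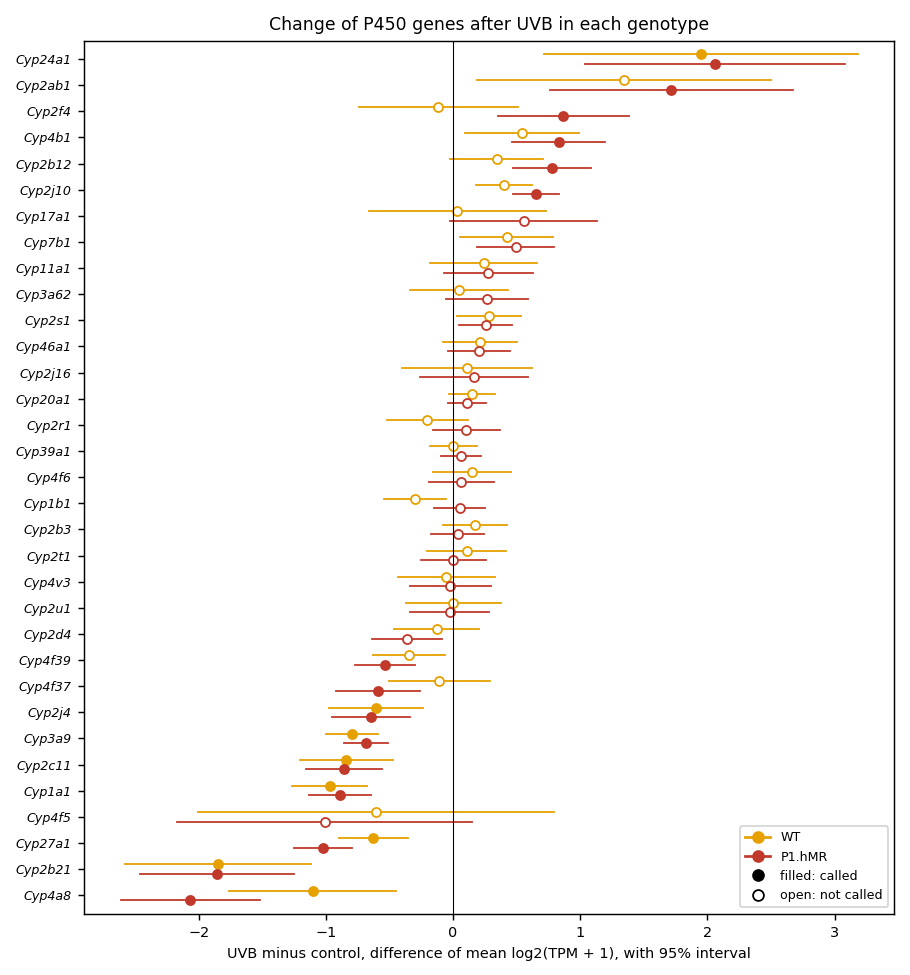
Difference of mean log2(TPM + 1) between UVB and control rats (x axis) for each P450 gene, in WT (yellow) and P1.hMR (red) rats, with 95% intervals and filled points for called genes. Cyp24a1 lies farthest to the right in both genotypes, and Cyp2b21 and Cyp4a8 farthest to the left.

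Groups that did not overlap were counted as well. In WT, 3 members had all UVB rats above all control rats and 7 had them below, as did 14.0% and 12.6% of all genes. In P1.hMR, 6 members had them above and 8 below, as did 13.2% and 14.0% of all genes. Cyp24a1, kept through its UVB rats, is among those above in both genotypes, and Cyp2c11, kept through its control rats, among those below. Summed over the 33 members, Control WT rats held 2559 ± 254 TPM (SD, n = 4) of P450 transcripts and UVB WT rats 1991 ± 173 TPM (SD, n = 3). Control P1.hMR rats held 2350 ± 214 TPM (SD, n = 5) of them, against 1898 ± 91.1 TPM (SD, n = 5) after UVB. The sums of UVB and control rats did not overlap in either genotype, and the sum was not tested. Cyp4f39 and Cyp2b21 had the largest falls in group mean TPM of all members in both genotypes, while other members moved in both directions. Without and with UVB, the group means of Cyp4f39 were 1160 and 916.1 TPM in WT and 1054 and 724.9 TPM in P1.hMR. Those of Cyp2b21 were 402.4 and 108.2 TPM in WT and 349.2 and 96.19 TPM in P1.hMR. The sum thus says little of the other members.

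Of the 7 members of family 4, the fatty acid ω-hydroxylases, 1 fell in WT, while 3 fell and 1 rose in P1.hMR. Over all genes, 3.98% were called lower in WT, and 5.71% lower and 5.05% higher in P1.hMR. Cyp4a8 was at 5.63, 10.3, 13.0 and 8.52 TPM in Control WT rats, against 4.29, 3.15 and 3.56 TPM in UVB WT rats. In the P1.hMR rats it was at 12.6, 11.8, 9.95, 22.2 and 20.9 TPM without UVB and at 3.86, 2.26, 2.44, 4.83 and 1.38 TPM with it. Every UVB rat lay below every control rat, and the highest values were those of 2 Control P1.hMR rats. This gave a log2 fold change of -1.10 (SE 0.31, limma adjusted p = 0.0189) in WT and -2.06 (SE 0.26, limma adjusted p = 1.94e-05) in P1.hMR, where Cyp4a8 fell most of all members. The WT call did not hold without Control WT rat 3, UVB WT rat 2 or UVB WT rat 3 (adjusted p 0.0506 to 0.0665) or with the replicate number as a block (-0.99, limma adjusted p = 0.0529).

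Cyp4f39 was at 1141, 1321, 1263 and 915 TPM in Control WT rats and at 1027, 1021 and 699.9 TPM in UVB WT rats. In Control P1.hMR rats it was at 1267, 1035, 949, 998 and 1019 TPM and in UVB P1.hMR rats at 732, 703, 769, 725 and 695 TPM. The 5 UVB P1.hMR rats lay close together and below every control rat of their genotype, while in WT only UVB rat 3 left the range of the controls. It fell in P1.hMR with a log2 fold change of -0.53 (SE 0.11, limma adjusted p = 0.00138), and was not called in WT at -0.35 (SE 0.13, limma adjusted p = 0.0755). Without Control P1.hMR rat 1, the highest of its group, the P1.hMR value was -0.46 (limma adjusted p = 0.0042) and no longer reached the fold change threshold.

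Cyp4f37, another member of the CYP4F group, was at 4.59, 5.17, 4.27 and 5.05 TPM in Control WT rats and at 6.12, 5.17 and 2.46 TPM in UVB WT rats. Its values were 4.12, 2.91, 5.12, 3.34 and 4.08 TPM in Control P1.hMR rats and 2.40, 2.32, 2.15, 2.27 and 2.01 TPM in UVB P1.hMR rats. UVB WT rats 1 and 2 were at or above the highest control rat, whereas UVB WT rat 3 lay near the 5 UVB P1.hMR rats, all of them below every control. The log2 fold change was -0.59 (SE 0.16, limma adjusted p = 0.00691) in P1.hMR and -0.11 (SE 0.19, limma adjusted p = 0.717) in WT, and the WT value turned to 0.20 without UVB WT rat 3.

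Cyp4b1, which oxidises fatty acids and activates several foreign compounds, rose in P1.hMR rats. It was at 1.2, 1.68, 1.52 and 1.71 TPM in Control WT rats and at 3.44, 2.02 and 2.68 TPM in UVB WT rats, then at 1.54, 1.38, 1.08, 1.33 and 0.99 TPM in Control P1.hMR rats and at 1.86, 2.46, 3.83, 2.43 and 5.30 TPM in UVB P1.hMR rats. No UVB rat overlapped the controls of its genotype, although all values were low. The log2 fold change was 0.83 (SE 0.17, limma adjusted p = 0.00140) in P1.hMR and 0.54 (SE 0.21, limma adjusted p = 0.0766) in WT, where it was not called, except without UVB P1.hMR rat 5 (0.54, limma adjusted p = 0.03). Cyp4f6 had group means of 15.6 to 17.3 TPM and Cyp4v3, the counterpart of human CYP4V2, of 1.86 to 1.99 TPM, with log2 fold changes between -0.05 and 0.15 that were not called. Cyp4f5 was too uneven between rats of 1 group for a call and is described with the genotypes.

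Cyp2r1 was grouped with the vitamin D enzymes, which left 13 members in family 2. Of these, 3 were called lower in WT, while 3 were called lower and 4 higher in P1.hMR. Cyp2c11, kept through its control rats alone, is among those called lower in both genotypes. Of all genes, 3.98% were called lower in WT, and 5.71% lower and 5.05% higher in P1.hMR. Cyp2b21 and Cyp2b12 were called in opposite directions in P1.hMR, and they lie on chromosome 1 with 2 protein-coding genes between them in the RefSeq annotation of GRCr8. Cyp2b21 was at 215, 377, 441 and 577 TPM in Control WT rats and at 148, 98.4 and 78.8 TPM in UVB WT rats. In Control P1.hMR rats it was at 262, 564, 350.0, 247 and 322 TPM and in UVB P1.hMR rats at 97.1, 86.7, 64.9, 158 and 74.0 TPM. All UVB rats lay below all control rats, and the log2 fold change was -1.85 (SE 0.35, limma adjusted p = 0.00180) in WT and -1.85 (SE 0.29, limma adjusted p = 0.000120) in P1.hMR. Its neighbour Cyp2b12 was at 106, 114, 113 and 111 TPM in Control WT rats, at 97.0, 177 and 164 TPM in UVB WT rats, at 129, 118, 113, 84.4 and 89.8 TPM in Control P1.hMR rats and at 152, 208, 182, 196 and 175 TPM in UVB P1.hMR rats. In P1.hMR every UVB rat lay above every control rat, whereas in WT the UVB rat 1 was the lowest of the WT rats and the other 2 were the highest. Cyp2b12 rose in P1.hMR with a log2 fold change of 0.78 (SE 0.14, limma adjusted p = 0.000544) and was not called in WT at 0.34 (SE 0.17, limma adjusted p = 0.173), but was called there without UVB WT rat 1 (0.61, limma adjusted p = 0.0102). UVB WT rat 1 was the rat that went against a rise, so the p without it is no separate support for one.

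In the deposited values the balance between both genes shifted with UVB. Where the quantification divided reads shared by both genes, their ratio is uncertain. The ratio of Cyp2b12 to Cyp2b21 TPM ran from 0.193 to 0.495 in Control WT and from 0.209 to 0.491 in Control P1.hMR rats, against 0.657 to 2.08 in UVB WT and 1.24 to 2.80 in UVB P1.hMR rats, a description with no test. Control rats held more Cyp2b21 than Cyp2b12 without exception, and all UVB rats but UVB WT rat 1 held more Cyp2b12.

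The 250 bases upstream of both genes are printed because the genes moved apart while their upstream sequences share runs of identical bases. They were taken from RefSeq (GRCr8, not the build of the deposited values), Cyp2b21 at chr1:91042753-91043002 on the minus strand and Cyp2b12 at chr1:91135044-91135293 on the plus strand, each 5′ to 3′ along the gene. Capitals mark the 7 runs of at least 8 bases that are identical in an alignment of the pair, the longest of 17 bases.
Cyp2b21: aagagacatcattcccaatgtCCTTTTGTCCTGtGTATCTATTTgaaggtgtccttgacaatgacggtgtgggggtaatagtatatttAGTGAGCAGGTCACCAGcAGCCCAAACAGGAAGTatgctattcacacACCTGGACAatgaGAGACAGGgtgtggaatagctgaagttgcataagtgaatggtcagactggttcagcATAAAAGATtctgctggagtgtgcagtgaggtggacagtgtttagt
Cyp2b12: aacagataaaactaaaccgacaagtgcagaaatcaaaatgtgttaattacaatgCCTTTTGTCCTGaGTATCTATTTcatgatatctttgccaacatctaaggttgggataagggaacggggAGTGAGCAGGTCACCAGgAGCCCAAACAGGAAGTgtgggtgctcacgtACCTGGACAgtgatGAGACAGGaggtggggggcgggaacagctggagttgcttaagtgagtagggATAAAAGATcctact
In the alignment 159 bases were identical, 54.1% of 294 aligned columns, beside a median of 44.5% over the 351 pairs of members with such a sequence. The highest pair was Cyp2b21 with Cyp2b3 (64.2%), and Cyp2b12 with Cyp2b3 was at 58.8%. Each gene was thus closer to Cyp2b3 than to the other. Cyp2b3 was at group means of 1.35 to 1.66 TPM and was not called, with log2 fold changes of 0.17 and 0.04. The shared runs are a description of sequence and not of binding sites.

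The 3 CYP2J genes, epoxygenases of arachidonic and related acids, also differed from each other. Cyp2j4 was at 60.9, 74.3, 69.5 and 46.0 TPM in Control WT rats and at 48.0, 34.8 and 38.8 TPM in UVB WT rats. In Control P1.hMR rats it was at 61.5, 60.1, 77.2, 57.6 and 52.4 TPM, and in UVB P1.hMR rats at 35.5, 36.8, 32.5, 53.2 and 38.9 TPM. Most UVB rats were lower than the controls, with overlap of 1 rat in each genotype. Cyp2j4 fell in both, with a log2 fold change of -0.61 (SE 0.17, limma adjusted p = 0.0206) in WT and -0.64 (SE 0.14, limma adjusted p = 0.00223) in P1.hMR. The WT call did not hold without any 1 of Control WT rats 2 and 3 and UVB WT rats 2 and 3 (adjusted p 0.0561 to 0.0927) or in a fit of only the groups compared (limma adjusted p = 0.0545).

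Cyp2j10 moved the other way, from 92.7, 86.4, 77.2 and 72.6 TPM in Control WT rats to 97.9, 115 and 113 TPM in UVB WT rats. It went from 95.3, 69.5, 67.6, 71.8 and 78.2 TPM in Control P1.hMR rats to 118, 116, 115, 127 and 125 TPM in UVB P1.hMR rats. No UVB rat overlapped the controls in either genotype, and the spread within groups was small. It rose in P1.hMR with a log2 fold change of 0.65 (SE 0.09, limma adjusted p = 2.82e-05), and in WT the value of 0.40 (SE 0.10, limma adjusted p = 0.0122) passed the adjusted p but not the fold change threshold. Cyp2j16 had group means of 181 to 203 TPM and was not called, with log2 fold changes of 0.11 (95% interval -0.40 to 0.62) in WT and 0.16 (-0.26 to 0.59) in P1.hMR. For Cyp2j4 with Cyp2j10 and with Cyp2j16, the upstream sequences shared 0 runs of 8 or more bases and 46.0% and 48.9% of aligned columns.

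Cyp2c11, known as the male-specific steroid hydroxylase of rat liver, was low in these females. It was at 0.60, 0.95, 2.06 and 1.17 TPM in Control WT rats and at 0.09, 0.32 and 0.18 TPM in UVB WT rats, and at 1.09, 1.67, 1.2, 1.65 and 1.36 TPM in Control P1.hMR rats and 0.15, 0.39, 0.26, 0.41 and 0.38 TPM in UVB P1.hMR rats. The groups did not overlap in either genotype. Cyp2c11 was lower with a log2 fold change of -0.84 (SE 0.17, limma adjusted p = 0.00311) in WT and -0.86 (SE 0.14, limma adjusted p = 0.000215) in P1.hMR, or -2.08 and -1.87 with a pseudocount of 0.1 in place of 1. Cyp2c11 was kept through its control rats alone, so these p are no separate support for a fall.

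Cyp2f4, related to the naphthalene-activating enzyme of the airway, was at 11.0, 14.4, 12.4 and 5.19 TPM in Control WT rats and at 10.5, 6.29 and 11.9 TPM in UVB WT rats. In P1.hMR rats it was at 15.7, 7.30, 17.1, 9.62 and 9.39 TPM without UVB and at 20.7, 24.0, 19.1, 20.2 and 23.0 TPM with it. The 5 UVB P1.hMR rats lay above all 12 other rats, and the other groups overlapped widely. The log2 fold change was 0.87 (SE 0.24, limma adjusted p = 0.0101) in P1.hMR, where it rose, and -0.12 (SE 0.29, limma adjusted p = 0.816) in WT, a value that ran from -0.40 to 0.13 as single rats were left out.

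Cyp2ab1, whose substrates are little known, varied strongly between rats. It was at 8.24, 7.73, 3.24 and 2.38 TPM in Control WT rats and at 16.1, 30.9 and 4.96 TPM in UVB WT rats. It was at 4.74, 0.49, 2.96, 0.53 and 0.69 TPM in Control P1.hMR rats and at 6.92, 4.41, 8.66, 7.79 and 8.22 TPM in UVB P1.hMR rats. Of the unirradiated rats, 3 P1.hMR rats lay at 0.49 to 0.69 TPM and the others at 2.38 TPM or more, while all UVB rats were at 4.41 TPM or more. Cyp2ab1 rose in P1.hMR with a log2 fold change of 1.72 (SE 0.45, limma adjusted p = 0.00679), and in WT the value of 1.34 (SE 0.55, limma adjusted p = 0.0900) was called only without UVB WT rat 3 (2.00, limma adjusted p = 0.0183). UVB WT rat 3 was the lowest of its group, so the p without it is no separate support for a rise. The remaining family 2 members, Cyp2s1, Cyp2u1, Cyp2t1, Cyp2b3 and Cyp2d4, had log2 fold changes between -0.36 and 0.28. Of these Cyp2d4 (-0.36 (SE 0.13, limma adjusted p = 0.0360)) and Cyp2s1 (0.26 (SE 0.10, limma adjusted p = 0.0488)) passed the adjusted p in P1.hMR below the fold change threshold.

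Family 1 and family 3 enzymes oxidise aromatic compounds, drugs and steroids. Cyp1a1, the classical target of the aryl hydrocarbon receptor (AHR), was at 57.0, 74.9, 68.9 and 83.6 TPM in Control WT rats and at 39.7, 27.2 and 41.4 TPM in UVB WT rats. In Control P1.hMR rats it was at 77.6, 75.8, 66.4, 83.4 and 73.4 TPM and in UVB P1.hMR rats at 44.4, 41.9, 34.8, 43.7 and 36.3 TPM. All UVB rats lay below all control rats. Cyp1a1 fell in both genotypes, with log2 fold changes of -0.97 (SE 0.14, limma adjusted p = 0.000296) in WT and -0.89 (SE 0.12, limma adjusted p = 2.73e-05) in P1.hMR. Its relative Cyp1b1, which hydroxylates estradiol, was not called, at -0.30 (95% interval -0.54 to -0.05) in WT and 0.05 (-0.15 to 0.25) in P1.hMR.

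Promoters of the members were searched for 3 motifs on both strands in RefSeq windows that run from 250 bases upstream to shortly past the start, available for 27 of the 33 members. The AHR element TNGCGTG was found in 1 of them, Cyp1b1, and in 4.89% of all 33469 such windows. The palindromic steroid receptor element, searched with 1 free base in each half-site, was found in 0 members and 0.439% of windows, and the DR1 element, a direct repeat of the nuclear receptor half-site spaced by 1 base, in 0 members and 0.0538% of windows. No motif contains another. The Cyp1b1 match began 22 bases upstream of the start and is shown with its surroundings, at chr6:21094535-21094557 on the plus strand of GRCr8, with the element in capitals.
Cyp1b1: tagagggaTGGCGTGtcgcctct
The match says nothing of binding, and the absence of these letters from the other windows nothing of the receptors.

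Cyp3a9, a drug and steroid oxidase, was at 51.4, 60.2, 64.5 and 60.0 TPM in Control WT rats and at 34.3, 32.0 and 34.1 TPM in UVB WT rats. In Control P1.hMR rats it was at 64.2, 72.1, 66.8, 69.7 and 66.6 TPM and in UVB P1.hMR rats at 41.3, 41.7, 39.5, 52.9 and 35.8 TPM. The UVB rats did not overlap the controls, and the 3 UVB WT rats lay below the 5 UVB P1.hMR rats. It fell by a log2 fold change of -0.80 (SE 0.10, limma adjusted p = 0.000105) in WT, the smallest p of the members there, and -0.68 (SE 0.08, limma adjusted p = 1.26e-05) in P1.hMR. Cyp3a62 had group means of 1.54 to 2.29 TPM and was not called, with log2 fold changes of 0.05 and 0.27.

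Among the 4 enzymes of sterols and oxysterols, 1 fell in both genotypes. Cyp27a1, the mitochondrial sterol 27-hydroxylase, was at 35.4, 49.0, 49.5 and 52.6 TPM in Control WT rats and at 30.3, 33.7 and 25.1 TPM in UVB WT rats. It was at 52.0, 50.9, 52.0, 44.2 and 42.3 TPM in Control P1.hMR rats and at 20.8, 23.8, 22.0, 27.4 and 22.3 TPM in UVB P1.hMR rats. No UVB rat reached the lowest control rat of its genotype. Cyp27a1 fell with a log2 fold change of -0.63 (SE 0.13, limma adjusted p = 0.00327) in WT and -1.02 (SE 0.11, limma adjusted p = 4.76e-06) in P1.hMR, the smallest p of the members there. The oxysterol 7α-hydroxylase Cyp7b1 passed the adjusted p in P1.hMR just under the fold change threshold (0.49 (SE 0.14, limma adjusted p = 0.0123)) and did not in WT (0.42 (SE 0.17, limma adjusted p = 0.0938)). Its relative Cyp39a1 (0.00 in WT, 95% interval -0.18 to 0.19, and 0.06 in P1.hMR, -0.09 to 0.22) and the cholesterol 24-hydroxylase Cyp46a1 (0.21 and 0.20) were not called.

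Both members of steroid hormone synthesis were present and neither was called. Cyp17a1 was uneven among control rats, at 379, 327, 143 and 141 TPM in Control WT rats and 312, 162, 140.2, 192 and 167 TPM in Control P1.hMR rats, against 165, 284 and 256 TPM in UVB WT rats and 311, 274, 326, 238 and 237 TPM in UVB P1.hMR rats. The groups overlapped, with a log2 fold change of 0.03 (SE 0.33, limma adjusted p = 0.959) in WT and 0.55 (SE 0.27, limma adjusted p = 0.119) in P1.hMR. Cyp11a1, which cleaves the cholesterol side chain in the first step of steroid synthesis, had group means of 3.57 to 5.22 TPM and log2 fold changes of 0.24 and 0.28.

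Of the vitamin D enzymes, Cyp24a1, which inactivates active vitamin D and is a target of the vitamin D receptor, rose from near 0. It was at 0, 0.02, 0.09 and 0.07 TPM in Control WT rats, the first of them listed at 0, and at 0.61, 1.76 and 13.7 TPM in UVB WT rats. In Control P1.hMR rats it was at 0.14, 0.02, 0.02, 0.13 and 0.11 TPM and in UVB P1.hMR rats at 3.05, 9.38, 6.11, 0.77 and 2.56 TPM. Every UVB rat lay above every control rat, and the UVB rats of a group differed widely among themselves. The log2 fold change was 1.95 (SE 0.58, limma adjusted p = 0.0255) in WT and 2.06 (SE 0.48, limma adjusted p = 0.00314) in P1.hMR, or 4.23 and 4.26 with a pseudocount of 0.1, so its size depends on that choice. Cyp24a1 was kept through its UVB rats alone, so these p are no separate support for a rise. The WT call rested on UVB WT rat 3, without which the value was 1.01 (limma adjusted p = 0.141), and it was not made in a fit of only the groups compared (limma adjusted p = 0.084). Cyp2r1, the vitamin D 25-hydroxylase, was not called, with log2 fold changes of -0.20 and 0.10, and the receptor Vdr lay at group means of 21.7 to 27.2 TPM with log2 fold changes of -0.22 and -0.31 (SE 0.07, limma adjusted p = 0.00256), below the fold change threshold. Cyp20a1, an orphan P450, had group means of 19.96 to 23.6 TPM and was not called.

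**Figure D3:**
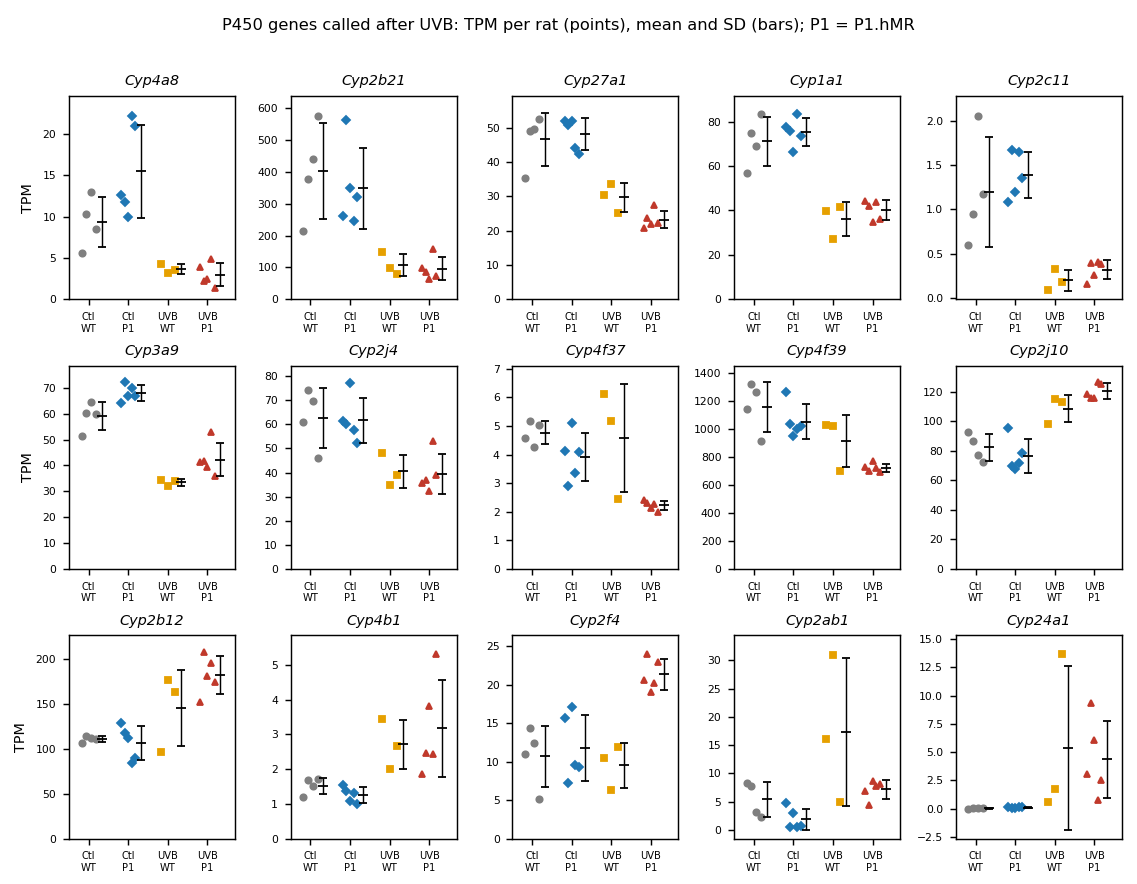
TPM (y axis, each panel with its own scale) of the 15 P450 genes called after UVB in at least 1 genotype, with a point per rat and bars for mean and SD in the 4 groups (Ctl, control; P1, P1.hMR). UVB rats lie below the controls in the panels from Cyp4a8 to Cyp3a9 and above them for Cyp2j10, Cyp4b1 and Cyp24a1.

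P1.hMR and WT rats were then compared within each treatment to ask what the transgene changed. Under UVB, 0 members were called by limma, where 0.0229% of all genes were called (0.0153% higher and 0.00763% lower), and 8 members had an unadjusted p under 0.05 (10.3% of all genes). Without UVB 0 members were called, where 0.00763% of all genes were called, and 4 had an unadjusted p under 0.05 (4.03% of all genes). Under UVB 5 members did not overlap, as Cyp1b1, Cyp2f4, Cyp2j10 and Cyp3a9 had all P1.hMR rats above all WT rats and Cyp4f37 had them below, as did 1.73% and 4.14% of all genes. Without UVB all 33 members overlapped. Of the melanocyte markers under UVB, 4 of 4 tested genes had an unadjusted p under 0.05 and 0 were called by limma (median difference 0.60). Their summed TPM ran from 50.5 to 59.4 in UVB WT and from 70.2 to 123 in UVB P1.hMR rats. Their part in the differences of the members was not tested.

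The smallest p under UVB were those of Cyp4f37, with a log2 difference of P1.hMR minus WT of -0.73 (SE 0.18, limma adjusted p = 0.226), and Cyp2f4, with 1.12 (SE 0.28, limma adjusted p = 0.226). Cyp1b1 differed by 0.38 (SE 0.11, limma adjusted p = 0.278) and Cyp3a9 by 0.32 (SE 0.09, limma adjusted p = 0.278). None of these passed the adjusted p. Cyp1b1 was at 2.62, 2.28 and 2.86 TPM in UVB WT rats and at 3.89, 4.31, 3.82, 3.12 and 3.26 TPM in UVB P1.hMR rats, beside 3.42, 3.83, 3.37 and 3.00 TPM in Control WT and 4.48, 3.04, 3.38, 3.10 and 3.61 TPM in Control P1.hMR rats. Its 3 UVB WT rats were the lowest of all rats.

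Some genes divided the rats within groups. Cyp4f5 was at 3.88, 8.69, 6.79 and 1.81 TPM in Control WT rats and at 6.5, 0.28, 4.33, 0.28 and 0.17 TPM in Control P1.hMR rats. With UVB it was at 5.87, 4.77 and 0.31 TPM in UVB WT rats and at 0.09, 0.32, 0.22, 0.07 and 0.23 TPM in UVB P1.hMR rats. Its values thus fell into a level of at least 1.81 TPM, held by all Control WT rats, 2 Control P1.hMR rats and 2 UVB WT rats, and a level of at most 0.32 TPM, held by all other rats. The log2 difference of P1.hMR minus WT was -1.66 (SE 0.63, limma adjusted p = 0.379) under UVB and -1.25 (SE 0.58, limma adjusted p = 0.998) without it. The 3 Control P1.hMR rats at the low level of Cyp4f5 were also the 3 lowest rats for Cyp2ab1, and UVB WT rat 3, at the low level of Cyp4f5, was the lowest UVB WT rat for Cyp2ab1, Cyp4f37 and Cyp4f39. Cyp4f39 did not follow the levels of Cyp4f5 in Control P1.hMR rats. Rats 1 and 3, at the high level of Cyp4f5, were at 1267 and 949 TPM of Cyp4f39. Rats 2, 4 and 5, at the low level, were at 1035, 998 and 1019 TPM. Cyp4f5 and Cyp4f37 are neighbours on chromosome 7 of GRCr8, with 0 protein-coding genes between them, and 1 such gene, Cyp4f17, lies between Cyp4f39 and Cyp4f5. Cyp2ab1 lies on chromosome 11.

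The epoxide hydrolase gene Ephx2, chosen after its values were seen, divided the UVB rats alike. It was at 53.8, 48.5 and 22.3 TPM in UVB WT rats and at 22.4, 23.2, 23.0, 21.3 and 21.3 TPM in UVB P1.hMR rats, and at 59.9, 67.4, 38.1 and 31.5 TPM in Control WT and 32.1, 32.8, 39.7, 32.8 and 29.7 TPM in Control P1.hMR rats. UVB WT rat 3 lay among the UVB P1.hMR rats for this gene. Without this rat Cyp4f37 was called lower in P1.hMR under UVB (-1.04, limma adjusted p = 0.00203), so 1 library decided that call. UVB WT rat 3 was the low rat of its group for Cyp4f37 itself, so this p is no test of the genotypes. The transgene was listed at 0 in UVB WT rat 3, as in the other WT rats. Why these rats differed was not tested.

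**Figure D4:**
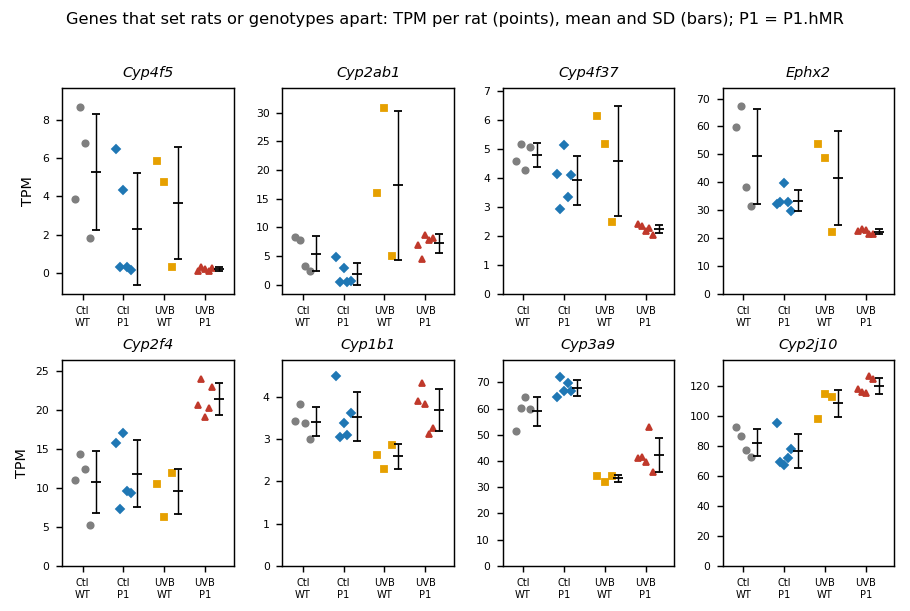
TPM (y axis, each panel with its own scale) in every rat, with mean and SD of the 4 groups, for P450 genes that divided rats or genotypes and for Ephx2. Cyp4f5 and Cyp2ab1 show low rats among the Control P1.hMR group, UVB WT rat 3 lies with the UVB P1.hMR rats for Cyp4f5, Cyp4f37 and Ephx2, and the UVB P1.hMR rats lie above the other groups for Cyp2f4.

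The difference between the UVB responses of both genotypes was tested as an interaction. Limma called 0 members and 0 genes in all (0.0% of genes tested), and 4 members had an unadjusted p under 0.05 (6.92% of all genes). Cyp2f4 had the smallest p, with a response larger by 0.98 in P1.hMR (SE 0.38, limma adjusted p = 0.704), followed by Cyp4a8 at -0.96 (SE 0.40, limma adjusted p = 0.711), Cyp27a1 at -0.40 (SE 0.17, limma adjusted p = 0.711) and Cyp1b1 at 0.35 (SE 0.15, limma adjusted p = 0.711). The group means of Cyp4a8 without and with UVB were 9.35 and 3.67 TPM in WT and 15.5 and 2.95 TPM in P1.hMR, so that the means of the genotypes lay farther apart before UVB than after it. A call in 1 genotype and not in the other, as for 7 members, was therefore not shown to differ between genotypes. Among the cell type markers, 3 of 3 tested goblet cell genes had an unadjusted interaction p under 0.05 and 0 were called by limma (median -1.43), with summed TPM of 19.2 to 53.8 in Control WT, 10.2 to 32.5 in UVB WT, 27.1 to 81.8 in Control P1.hMR and 4.13 to 24.1 in UVB P1.hMR rats. Their part in the interaction values was not tested. For Cyp2b21 and Cyp1a1, which fell in both genotypes, the 95% interval of the interaction ran from -0.96 to 0.94 and from -0.31 to 0.46.

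Genes that work with the P450 enzymes were taken from lists of 77 genes, of which 69 were in the table and 57 were tested. In WT 4 of them were called higher and 3 lower, and in P1.hMR 5 higher and 4 lower, or 12.3% and 15.8% of those tested beside 7.91% and 10.8% of all genes, with median log2 fold changes of -5.06e-05 and -0.05. Of 11 genes listed as redox partners, which include the haem genes Alas1, Hmox1 and Hmox2, only Cyb5r3, a cytochrome b5 reductase, was called. It was called higher in WT (0.50), and in P1.hMR it passed the adjusted p below the fold change threshold (0.38, limma adjusted p = 0.0181). The common electron donor Por lay at group means of 355 to 386 TPM, with log2 fold changes of 0.07 (limma adjusted p = 0.484) and -0.01 (limma adjusted p = 0.875). Of 8 genes of the AHR pathway, Nqo1 was called higher in WT (0.64) and missed only the fold change threshold in P1.hMR (0.49, limma adjusted p = 0.00604). Aldh3a1, an aldehyde dehydrogenase of this list, was called lower in WT (-0.86) and P1.hMR (-0.75). Ahr itself had log2 fold changes of -0.38 (SE 0.09, limma adjusted p = 0.00794) and -0.32 (SE 0.08, limma adjusted p = 0.00356), below the fold change threshold. Of 10 genes listed as receptors that regulate P450 genes, which include the transcription factor Nfe2l2, 0 were called by limma. In each genotype 4 of them had an unadjusted p under 0.05 (35.3% and 47.6% of all genes). Nr1i2, Nr1h4 and Nr5a1 had group means of 0.08 TPM or less.

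The list of genes for epoxides and ω-oxidised lipids also held Tbxas1, Pla2g4a and Alox5 of arachidonic acid metabolism. Among its 8 tested genes, the alcohol dehydrogenase Adh7 was called lower in WT (-0.55) and P1.hMR (-0.77). In P1.hMR the epoxide hydrolase Ephx3, which acts in the skin barrier pathway, was called higher (0.80) and Ephx2 lower (-0.56), and neither was called in WT (0.33 and -0.27). Of 10 conjugating enzymes, the glutathione transferases Gstm1 (0.76 and 0.50) and Mgst2 (0.54 and 0.58) were called higher in WT and P1.hMR, and the sulfotransferase Sult2b1 in P1.hMR (0.62, with 0.24 in WT). Of 10 steroid genes, Hsd11b2, which inactivates corticosterone, was called lower in WT (-1.14) and P1.hMR (-1.24), and the 5α-reductase Srd5a1 was called higher in P1.hMR (0.68, with 0.41 in WT).

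**Figure D5:**
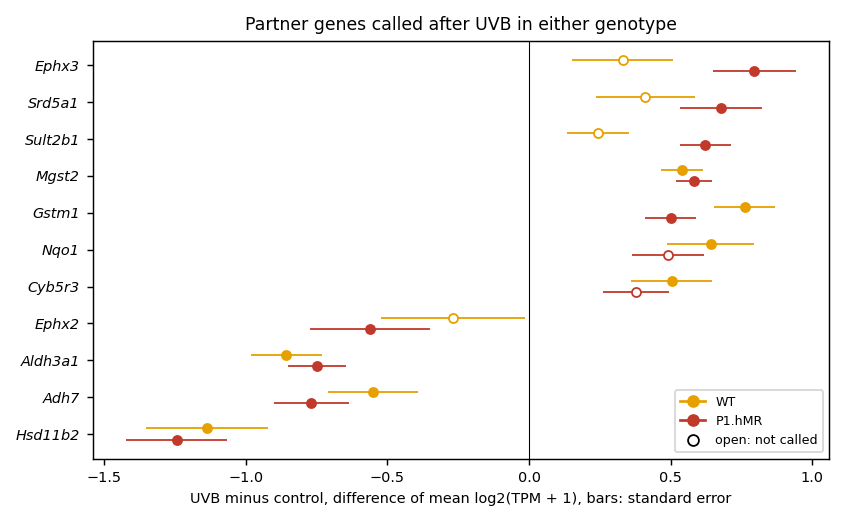
Difference of mean log2(TPM + 1) between UVB and control rats (x axis) for the partner genes called in at least 1 genotype, in WT (yellow) and P1.hMR (red), with standard errors and filled points for called genes. Hsd11b2, Aldh3a1 and Adh7 were called lower and Gstm1 and Mgst2 higher in both genotypes.

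Markers of cell types moved with UVB too. Of the 12 meibocyte and sebocyte genes, 2 were called higher and 2 lower in WT, and 1 higher and 2 lower in P1.hMR, and their summed TPM ran from 45030 to 55660 in control rats and from 39520 to 48410 in UVB rats. Hair follicle keratins were called lower for 7 of 7 tested genes in WT and 5 of 7 in P1.hMR, with sums of 677 to 1259 TPM in control rats and 310.2 to 816 TPM in UVB rats. Of 7 epidermal keratinocyte genes 2 were called lower in WT and 1 in P1.hMR, and 0 higher, yet their summed TPM ran from 10860 to 13520 in control rats and from 11760 to 16060 in UVB rats. Krt14 passed the adjusted p just under the fold change threshold in WT (0.48, limma adjusted p = 0.0175) and P1.hMR (0.498, limma adjusted p = 0.00204), and Krt1 in P1.hMR (0.45, limma adjusted p = 0.00869). Of 5 fibroblast genes 3 were called higher in both and 1 lower in P1.hMR. Melanocyte genes were called lower for 3 of 4 in WT and 0 in P1.hMR. Among 7 macrophage, 3 T cell and 4 endothelial genes, 2, 1 and 1 were called higher in each genotype and 0 lower. Of 5 adipocyte genes 1 was called lower in each genotype, but not the same one, Cidec in WT and Plin4 in P1.hMR. Of 6 skeletal muscle genes 1, Actn3, was called lower in both. Of 3 goblet cell and 4 lacrimal acinar genes 0 were called in WT, and 2 and 1 were called lower in P1.hMR. The 1 hepatocyte marker above 1 TPM, Serpina1, was called lower in both genotypes (-1.54 and -1.84). The part of these cell types in the P450 changes was not tested.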

How the data were processed

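Per the deposited file, values were TPM for 17251 genes, 1 column per rat, written with decimal commas and summing to 804378 to 840817. According to the methods, the authors aligned reads to rn7 with STAR and quantified genes with RSEM, while the submitters' processing notes name Trimmomatic, DRAGEN and Picard, so the steps behind the TPM are not settled. RSEM divides reads shared by similar genes. TPM keeps no counts, so depth is unknown and no count test was run.

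Genes reaching 1 TPM in 3 or more rats, 13105 in number, were analysed as log2(TPM + 1) in R 4.3.3 with limma 3.58.1 (variance trend, 4 group means in 1 model, two-sided p, Benjamini-Hochberg over all genes), after the model was tested on simulated data. The 5 comparisons were UVB against control in each genotype, P1.hMR against WT in each treatment, and their interaction. Groups came from the sample titles. Python 3.11.15 with pandas 2.3.3, numpy 2.4.6, Biopython 1.88 and matplotlib 3.10.9 did the rest.

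The members, partner and marker lists and named genes were chosen with earlier results of these data known. Called members were given in every rat, and the 6 highest members, the 3 with the smallest interaction p and called partners by value. Cyp1b1, Cyp4f5, Cyp3a9 under the genotype comparison, the sequences printed and Ephx2 by rat were chosen after their values were seen. RefSeq tables (GRCr8) matched all 33 members by gene ID, and 27 had a promoter. The alternatives were a pseudocount of 0.1, other filters on low values, quantile and median-of-ratios scaling, no variance trend, other fold change thresholds, only the groups compared, a replicate block and each rat left out. Comparisons of the authors and their other experiments were not analysed here, and 1 gene of the partner lists is not reported here.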

Additional observations from a re-analysis of the deposited data

Results flagged for a closer look

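Cyp4f39 was singled out in 1 library, Control P1.hMR rat 1, which was at 1266.52 TPM while the other 4 rats of its group lay between 949 and 1035 TPM, a gap wide for 5 samples by Dixon's criterion. Of the P450 values, 54 sets of 4 or 5 rats were examined in this way, and chance alone flags about 1 in 20. Without this rat the fall of Cyp4f39 in P1.hMR went from -0.53 to -0.46 on the log2 scale (limma adjusted p = 0.0042), under the fold change threshold. The groups of 3 UVB WT rats were too small to be examined.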

How the results depend on the processing

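The counts of called members (1 higher and 7 lower in WT, 6 higher and 9 lower in P1.hMR, 0 for genotype with or without UVB and for the interaction) stayed within 1.5 times of these values under a pseudocount of 0.1, no filter, quantile and median-of-ratios scaling, no variance trend and the replicate block. Requiring a mean of at least 5 TPM left 0 members higher in WT, since Cyp24a1 was then not tested, a fit of only the groups compared left 0, and no fold change threshold gave 2. A log2 fold change of at least 1 gave 2 lower members in WT, and 2 higher and 3 lower members in P1.hMR. With each rat left out in turn, the counts ran from 1 to 2 higher and 5 to 7 lower in WT, 6 to 8 higher and 8 to 9 lower in P1.hMR, 0 to 1 for genotype under UVB, and 0 to 0 for genotype without UVB and the interaction. Each rat was left out by gene only for the 15 called members, under UVB in each genotype and genotype under UVB, and among these the values that changed sign were those of genotype under UVB for Cyp2b21 (-0.39 to 0.054), Cyp1a1 (-0.018 to 0.28), Cyp2j4 (-0.16 to 0.076), Cyp24a1 (-0.49 to 1.10) and Cyp4b1 (-0.036 to 0.27), and of UVB in WT for Cyp2f4 (-0.40 to 0.13) and Cyp4f37 (-0.32 to 0.20), none of them called. The cause was not tested. Scaling moved the median of all genes by at most 0.02 on the log2 scale.

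The replicate numbers of the titles were not taken to pair the rats. Over 22 pairs of rats with the same number in different groups, the correlation of deviations ran from -0.19 to 0.24 (median -0.01). Of these, 4 lay above 0.1. Rats with different numbers were not compared in this way, so the range cannot show whether the numbers pair rats. With the replicate block the counts were 1 higher and 6 lower in WT, 6 higher and 9 lower in P1.hMR and 0 in the other comparisons, and the call lost was Cyp4a8 in WT (-0.99). A fit of only the groups compared was not run for the interaction, which needs all groups. The 3 UVB WT rats limit the precision of every WT value, and values under 1 TPM are the least precise.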
